A study of Homo sapiens with 6 samples.

Results

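REST, a zinc finger repressor of neuronal genes, and the subunits of the corepressor complexes it recruits were examined in LNCaP cells, a long-established line from human prostate adenocarcinoma that responds to androgen. The genes were taken by name from a table of 16311 genes: REST, RCOR1, RCOR2, RCOR3, HDAC1, HDAC2, SIN3A, KDM1A and EHMT2. Of these 9 genes, 8 had a row, and EHMT2 had none and was not analysed here. Read counts came from RNA sequencing of 3 libraries of untreated cells and 3 libraries of cells given a cumulative dose of 40 Gy, a treatment labelled FIR, an abbreviation left unexplained, in a series whose title speaks of radiation. The groups share the cell line and differ, as far as the labels say, in that treatment alone, and the time between dose and harvest is not given in the sources used here. The replicates are numbered, but nothing says how the cultures were separated, so each p-value reflects only how these libraries vary, which may be technical variation.

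REST binds a sequence called RE1 that lies in or near many genes of the synapse, of ion channels and of secretory vesicles, and keeps them low in cells that are not neurons. It works by recruitment. One part of the protein holds the scaffold SIN3A, and another holds a CoREST scaffold (RCOR1, RCOR2 or RCOR3), and both scaffolds bring the deacetylases HDAC1 and HDAC2. CoREST also carries KDM1A, a demethylase that removes an activating methyl mark from histone tails, while EHMT2 adds a repressive one. In prostate cancer, loss of REST activity has been tied to a neuroendocrine-like expression pattern, which the series title names.

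Read totals ran from 15703483 to 21004697 per library. At this depth 7 of the 8 genes had between 972 and 5460 reads in every library, and RCOR2 had between 41 and 74. Levels are given as CPM, read counts put on a common library size, and, for comparisons between genes, as RPKM (the same per kilobase of the gene's length in the table). All 9 listed luminal prostate markers had a row, none of 10 immune markers had one, and 4 of 9 fibroblast and smooth muscle markers and 1 of 5 endothelial markers (VWF) had one. The luminal markers summed to 7478 to 8126 CPM in untreated and 7745 to 8560 CPM in FIR libraries, but 6 of the 9 were called higher and 2 lower. The lower ones were KLK3, prostate-specific antigen, at means of 2958 CPM in untreated and 2282 CPM in FIR cells, and the homeobox gene HOXB13, at 586 and 474 CPM. The 4 fibroblast and smooth muscle markers summed to 26.5 to 29.7 and 14.4 to 19.0 CPM, of which COL1A1 went from a mean of 24.0 to 5.33 CPM, whereas ACTA2 rose from 2.62 to 5.83 and COL3A1, listed through its FIR libraries, went from 0.401 to 4.47 CPM. VWF stood at 28.9 to 40.6 and 5.08 to 6.22 CPM. The part of these markers in the results was not tested. In bulk RNA, fewer cells of a type and less RNA per cell cannot be told apart.

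REST did not fall. Among its 7 measured cofactors, the deacetylases HDAC1 and HDAC2 and the demethylase KDM1A fell, RCOR3 rose, and RCOR1, RCOR2 and SIN3A did not pass the test. The changes were small: the largest fall, that of HDAC2, was 26.0%, and the largest rise, that of RCOR3, was 24.1%. A gene was called when its adjusted p from edgeR's quasi-likelihood test, corrected by Benjamini-Hochberg over all 16311 genes, was under 0.05. By that rule 3 of 7 cofactors were lower, beside 23.4% of all genes, and 1 of 7 was higher, beside 25.4% of all genes. With so few genes those shares set nothing apart from the rest of the table. CPM values of the 2 groups did not overlap for 5 of the 8 genes, REST included, beside 56.9% of all genes. Summed over the 7 cofactors, levels were 772 to 819 CPM in untreated libraries and 678 to 705 CPM in FIR libraries. HDAC1 and HDAC2 were the largest parts of that sum. Their means were 248.6 and 219.5 CPM in untreated cells and 209.5 and 162.4 CPM in FIR cells, so the sum mainly follows these 2 genes.

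**Figure D1:**
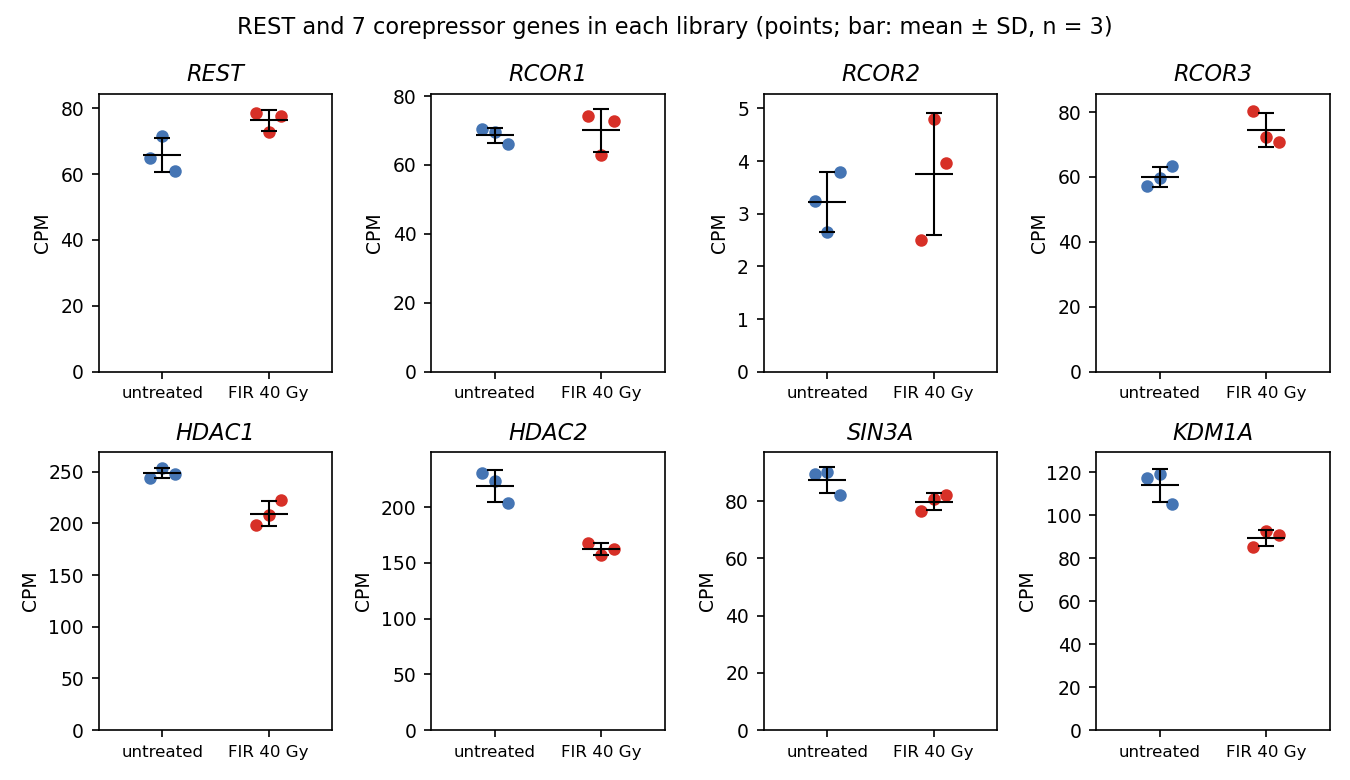
CPM (linear axis from 0) of REST and 7 corepressor genes in each untreated library (blue) and each library given 40 Gy of FIR (red), with the group mean and SD (black, n = 3). The groups stand apart for REST, RCOR3, HDAC1, HDAC2 and KDM1A and overlap for RCOR1, RCOR2 and SIN3A.

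REST (ENSG00000084093.17, chromosome 4, 56907876 to 56966678, plus strand, hg38) stood at 64.7, 71.4 and 61.0 CPM in untreated replicates 1 to 3 and at 78.6, 72.6 and 77.6 CPM in the FIR libraries. The lowest FIR library lay just above the highest untreated one. The log2 fold change, FIR over untreated, was 0.21 (SE 0.08, 95% interval 0.03 to 0.39, adjusted p = 0.0479 by edgeR). This call was at the threshold: it was lost in 10 of 14 alternative settings, with adjusted p from 0.0536 to 0.181, and the authors' deposited table gives an adjusted p of 0.0537. In all 14 settings the log2 fold change was above 0, from 0.14 to 0.26. The setting with no gene filter, counted among the 14, repeats the reported fit and is no separate check. On the opposite strand the gene NOA1 overlaps REST's annotated span by 3309 bases. NOA1 had a mean of 76.9 CPM and a log2 fold change of 0.18. Since the strand setting of the counting is not given, reads from the shared stretch cannot be told apart. Opposite-strand genes also overlap other members: HDAC2-AS2 the span of HDAC2 by 41608 bases, and AL031428.1 that of KDM1A by 63543 bases. Neither of these had a row, so the same limit holds for HDAC2 and KDM1A. RCOR1 and SIN3A have shorter overlaps of this kind.

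Of the deacetylases, HDAC2 (chromosome 6, 113933028 to 114011308) stood at 231, 224 and 203 CPM in untreated cells and at 168, 157 and 162 CPM in FIR cells. Every FIR library was below every untreated library. The log2 fold change was -0.43 (SE 0.08, 95% interval -0.60 to -0.27, adjusted p = 2.2e-04 by edgeR), and 20.5% of all genes had a lower value. HDAC1 (chromosome 1, 32292083 to 32333635) stood at 244, 254 and 248 CPM in untreated cells and at 198, 208 and 222 CPM in FIR cells, again with no overlap. It fell by 0.25 on the log2 scale (SE 0.07, adjusted p = 0.0107 by edgeR). Without FIR_40Gy replicate 1, its lowest library, HDAC1 missed the threshold (log2 fold change -0.21, adjusted p = 0.0505 by edgeR). The remaining class I deacetylases, which were not among the chosen genes, did not pass: HDAC3, the deacetylase of the NCoR complex, had a log2 fold change of 0.11 and HDAC8 one of 0.11.

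KDM1A, the histone demethylase of CoREST (chromosome 1, 23019443 to 23083689), stood at 117, 119 and 105 CPM in untreated cells and at 85.2, 92.5 and 90.7 CPM in FIR cells. The groups did not overlap. It fell by 0.35 on the log2 scale (SE 0.08, 95% interval -0.52 to -0.18, adjusted p = 0.00211 by edgeR), a fall of 21.4%. Its paralog KDM1B, which works outside CoREST, went from 58.5 ± 3.95 to 60.8 ± 2.51 CPM (SD, n = 3) and did not pass.

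The CoREST scaffolds differed among themselves. RCOR3 (chromosome 1, 211258377 to 211316385) stood at 57.1, 59.7 and 63.3 CPM in untreated cells and at 80.5, 72.4 and 70.6 CPM in FIR cells, where every library was higher. The log2 fold change was 0.31 (SE 0.08, 95% interval 0.13 to 0.49, adjusted p = 0.00648 by edgeR), and the call held in each of the 14 settings. RCOR1 (chromosome 14, 102592649 to 102730561) stood at 70.3, 69.5 and 66.2 CPM in untreated cells and at 74.3, 63.0 and 72.9 CPM in FIR cells. Its groups overlapped, and its log2 fold change of 0.03 had a 95% interval of -0.15 to 0.21. RCOR2 (chromosome 11, 63911230 to 63917164) was scarce, at 3.23, 2.65 and 3.79 CPM in untreated cells and 2.51, 4.79 and 3.96 CPM in FIR cells. Its FIR libraries spanned the untreated ones, and its log2 fold change of 0.22 had a 95% interval of -0.34 to 0.78.

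SIN3A, the scaffold that binds REST at its other end (chromosome 15, 75369379 to 75455842), stood at 89.4, 90.3 and 82.0 CPM in untreated cells and at 76.5, 80.7 and 82.2 CPM in FIR cells. The highest FIR library lay above the lowest untreated one. Its log2 fold change was -0.13 (95% interval -0.30 to 0.04, adjusted p = 0.194 by edgeR). Its paralog SIN3B went from 107 ± 3.10 to 104 ± 9.26 CPM (SD, n = 3) and did not pass. EHMT1, the partner of EHMT2 in histone methylation, stood at 147, 140 and 126 CPM in untreated cells and at 116, 108 and 121 CPM in FIR cells. It was called lower (log2 fold change -0.26, SE 0.08, adjusted p = 0.0169 by edgeR), but the call was lost without untreated replicate 1, untreated replicate 2 or FIR_40Gy replicate 2 (adjusted p = 0.067, 0.0523 and 0.0773 by edgeR).

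**Figure D2:**
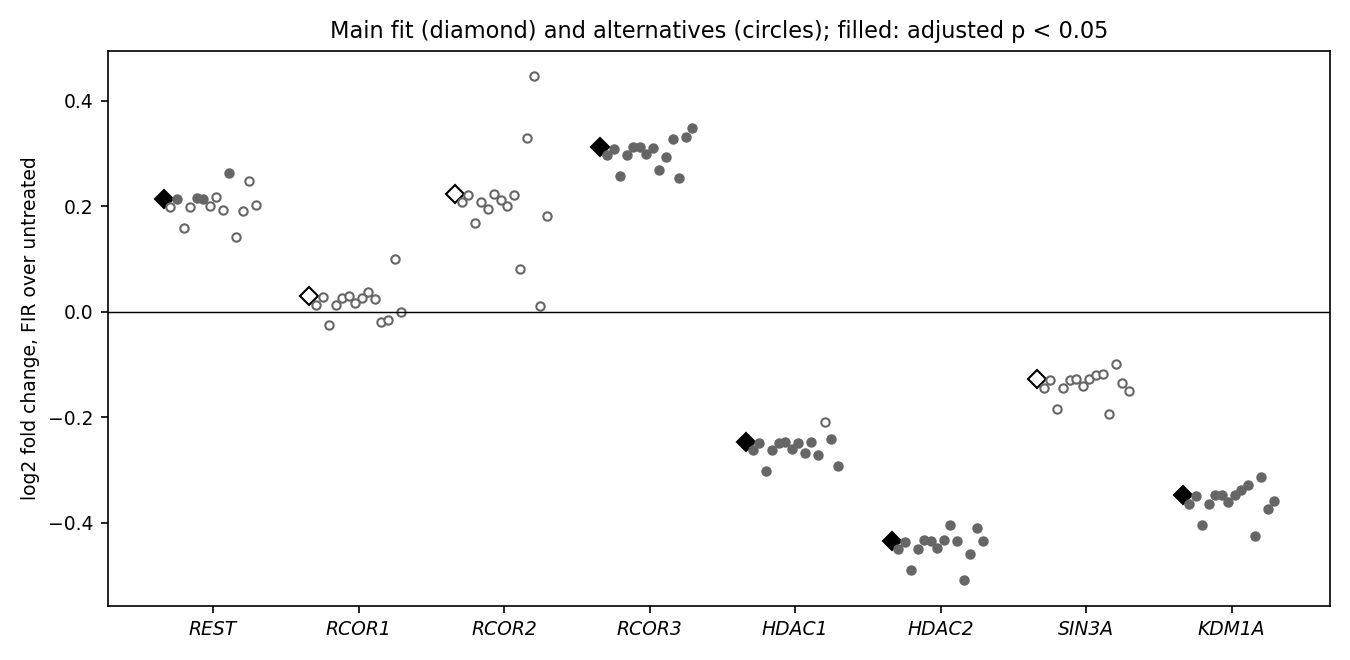
Log2 fold change, FIR over untreated, of REST and 7 cofactors in the reported fit (diamonds) and in 14 alternative settings (circles), filled where the adjusted p was under 0.05. RCOR3, HDAC2 and KDM1A are filled throughout, HDAC1 in all but 1 alternative, and REST in 4 of 14.

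Per length, HDAC1 was the most abundant of the 8 genes in untreated cells at 62.7 ± 1.15 RPKM (SD, n = 3). KDM1A followed at 20.9 ± 1.39 RPKM, then HDAC2 at 14.3 ± 0.941, RCOR1 at 11.1 ± 0.354 and REST at 8.25 ± 0.658 RPKM. SIN3A at 7.01 ± 0.366 and RCOR3 at 6.62 ± 0.342 RPKM overlapped, and RCOR2 was lowest at 1.09 ± 0.188 RPKM. In FIR cells RCOR1 at 11.3 ± 0.998 RPKM and HDAC2 at 10.6 ± 0.360 RPKM overlapped, whereas in untreated cells HDAC2 was above RCOR1 in each library. RCOR3 at 8.21 ± 0.575 RPKM stood above SIN3A at 6.42 ± 0.237 RPKM in FIR cells, with no overlap. The length used is that of the table, 15333 bases for HDAC2 and 3966 for HDAC1, so a per-length level is lower for a gene with long annotated exons that these cells may not use.

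Ratios within a library do not depend on how libraries are scaled, and 6 of the 7 planned pairs could be formed, the EHMT2 pair being left out. RCOR1 to RCOR3 stood at 1.81, 1.71 and 1.53 in untreated libraries and at 1.35, 1.27 and 1.51 in FIR libraries. RCOR1 made up 59.0% ± 2.25 and then 54.4% ± 2.56 of the summed RPKM of the 3 scaffolds, and RCOR3 35.2% ± 1.63 and 39.5% ± 1.94 (SD, n = 3). KDM1A to RCOR1, the enzyme against its main scaffold, stood at 1.90, 1.95 and 1.81 in untreated libraries and at 1.31, 1.67 and 1.42 in FIR libraries. Both of these pairs were apart between the groups, with a two-sided exact permutation p of 0.1, the smallest that 3 against 3 can give, and an adjusted p of 0.3 over the 6 pairs. The ratios of HDAC1 to HDAC2, RCOR1 to RCOR2, SIN3A to SIN3B and KDM1A to HDAC2 overlapped between groups (exact permutation p from 0.2 to 0.8). None of the 6 pairs can therefore be called changed.

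**Figure D3:**
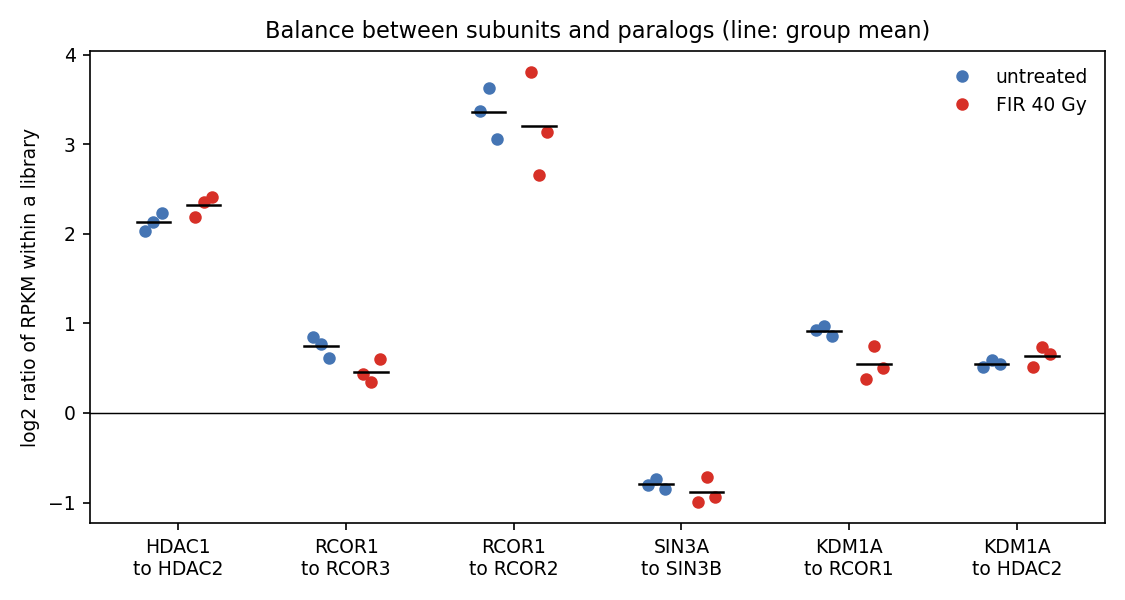
Log2 ratio of RPKM within each library for 6 pairs of subunits or paralogs, untreated (blue) and FIR 40 Gy (red), with the group mean (line). Only RCOR1 to RCOR3 and KDM1A to RCOR1 show no overlap between the 3 untreated and 3 FIR libraries.

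Of 20 listed genes of CoREST and a wider circle of partners, all with a row, 6 rose, 2 fell and 12 did not pass. These are shares of 30% higher and 10% lower, beside 25.4% and 23.4% of all genes. The median log2 fold change was 0.07 beside 0.01 over all genes. PHF21B, counted among the rises, stood at 0.261, 0.232 and 0.875 CPM in untreated cells and at 1.59, 1.88 and 0.692 CPM in FIR cells. It was listed through its FIR libraries, so its rise is only a description. Its groups overlapped, and its call was lost in 4 of 14 alternative settings. The largest fall was that of HMG20B, the HMG-box subunit of the complex, which stood at 262, 238 and 257 CPM in untreated cells and at 173, 142 and 165 CPM in FIR cells (log2 fold change -0.66, SE 0.08, adjusted p = 1.3e-05 by edgeR). DYRK1A, a kinase that targets REST complexes and is no subunit of CoREST, rose (log2 fold change 0.29, SE 0.08). RLIM, a ubiquitin ligase and likewise no subunit, was counted among the rises and lost its call in 4 of 14 alternative settings.

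Of 16 measured SIN3 complex genes among 18 listed, 5 rose, 6 fell and 5 did not pass, or 31.2% higher and 37.5% lower beside 25.4% and 23.4% of all genes. Over the 14 alternative settings 4 to 5 were higher and 4 to 6 lower. The small subunit SAP30 stood at 15.9, 12.2 and 9.45 CPM in untreated cells and at 6.24, 3.69 and 2.89 CPM in FIR cells, the largest fall of the list (log2 fold change -1.55, SE 0.25, adjusted p = 1.2e-04 by edgeR). SUDS3, which supports the deacetylase activity of the complex, fell from 106 ± 5.97 to 65.8 ± 6.38 CPM (SD, n = 3). ING1, a reader of histone methylation, fell by 0.61 on the log2 scale, a call lost without FIR_40Gy replicate 3 (adjusted p = 0.0566 by edgeR). The largest rises were those of ARID4A and ARID4B, DNA-binding subunits of the complex, at 0.58 (SE 0.12) and 0.49 (SE 0.09), and of SAP30L, the paralog of SAP30, at 0.44 (SE 0.10).

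**Figure D4:**
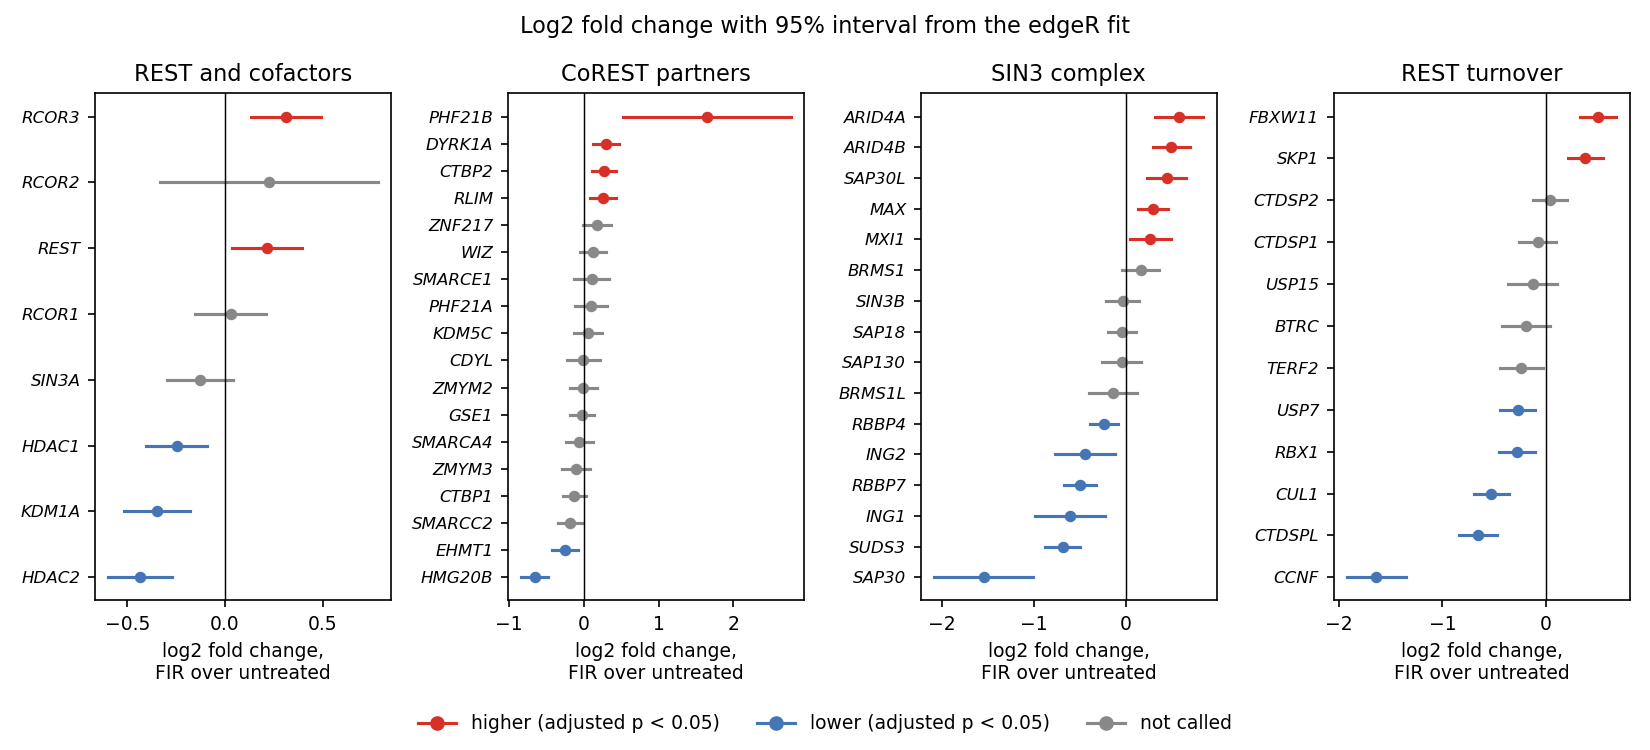
Log2 fold change, FIR over untreated, with its 95% interval from the edgeR fit, for REST and its cofactors, the CoREST partners, the SIN3 complex genes and the REST turnover genes (red higher, blue lower, grey not called; each panel has its own axis range, and genes not reported here are left out). In the cofactor panel values run from -0.43 for HDAC2 to 0.31 for RCOR3.

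The level of REST protein is set largely by its destruction, which these RNA counts do not measure. Of 12 measured turnover genes among 14 listed, 2 rose, 5 fell and 5 did not pass, or 16.7% higher and 41.7% lower beside 25.4% and 23.4% of all genes. The ubiquitin ligase that marks REST uses BTRC or FBXW11 as its recognition subunit, with SKP1, CUL1 and RBX1. FBXW11 stood at a mean of 92.0 ± 3.68 CPM in untreated and 131 ± 10.97 CPM in FIR cells (SD, n = 3), and SKP1 at 201 ± 9.24 and 262 ± 19.8 CPM, and both rose. CUL1 fell from 92.0 ± 4.65 to 63.8 ± 2.32 CPM and RBX1 from 80.5 ± 3.87 to 66.4 ± 4.80 CPM (SD, n = 3). BTRC had a log2 fold change of -0.19 (adjusted p = 0.163 by edgeR).

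Among the other turnover genes, USP7, a deubiquitinase reported to protect REST, fell by 0.27 on the log2 scale (SE 0.08), whereas USP15 had a log2 fold change of -0.13 and did not pass. The calls of RBX1 and USP7 were each lost without 1 library, FIR_40Gy replicate 2 and untreated replicate 2 (adjusted p = 0.0693 and 0.0505 by edgeR). CTDSPL, of the small phosphatases that act with REST, fell by 0.66 (SE 0.09), while CTDSP1 and CTDSP2 had log2 fold changes of -0.08 and 0.04 and did not pass. TERF2, a telomere protein that binds REST, had one of -0.24 (adjusted p = 0.0581 by edgeR). The largest fall of the list was that of CCNF, an F-box cyclin of the cell cycle, at -1.64 (SE 0.13).

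Proliferation markers fell beside HDAC1, HDAC2 and KDM1A. All 22 of 22 listed markers fell, beside 23.4% of all genes. Some were listed through the untreated group, since the table held no gene below about 0.605 CPM in 3 libraries. In FIR libraries AURKB stood at 0.306, 0.454 and 0.189 CPM, NUSAP1 at 0.428, 0.389 and 0 CPM, and BIRC5 at 0.489, 0.259 and 0.629 CPM. The falls of AURKB, NUSAP1 and BIRC5 are therefore only descriptions. The median log2 fold change of the 22 markers was -4.49, beside 0.01 over all genes. Their summed level was 1719 to 2498 CPM in untreated libraries and 252 to 263 CPM in FIR libraries. The part of proliferation in the falls of these cofactors was not tested.

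Among genes listed from general knowledge as bound and repressed by REST, most of those with a row were higher in FIR cells. Whether REST binds them in these cells was not measured. Of 94 listed RE1 target genes 41 had a row, and 29 of these rose, 2 fell and 10 did not pass. That is 70.7% higher, beside 25.4% of all genes, and 4.88% lower, beside 23.4%. The median log2 fold change was 0.69 beside 0.01 over all genes. The count of higher targets was 24 to 29 over the 14 alternative settings, and CPLX1, UNC13A, L1CAM, TUBB3 and RUNDC3A each lost the call in 3 to 9 of them. The 53 targets with no row could not be counted. Because the table held no gene below about 0.605 CPM in 3 libraries, a scarce target could be listed thanks to its higher group alone: 3 of the 41 were at that level in all FIR libraries but not in all untreated ones, and 37 were at it in all 6 libraries. Of the 27 targets averaging 5 CPM or more, 21 rose and 2 fell, beside 28.2% and 28.0% of all genes at that level. That average is over all 6 libraries, so it too can be reached through the higher group. NEFL, at means of 2.08 CPM in untreated and 10.9 CPM in FIR cells, reached it in that way. The list was written from general knowledge with results on some of its genes (SYT4 and RTN1 among them) already known, so its count is a description and not independent evidence.

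SYT4, a synaptotagmin of secretory vesicles, stood at 42.5, 31.0 and 40.1 CPM in untreated cells and at 1811, 1698 and 1575 CPM in FIR cells, the largest rise among the targets. Without SYT4 the summed level of the other 40 targets was 1107 to 1145 CPM in untreated libraries and 1721 to 1916 CPM in FIR libraries, which did not overlap. SNAP91, a clathrin adaptor of synaptic vesicles, stood at 0.365, 0.279 and 0.525 CPM in untreated cells and at 4.65, 5.31 and 5.22 CPM in FIR cells. It reached the table's lowest level in 0 untreated libraries and 3 FIR libraries, so it was listed through the group where it is high and its difference is given as a description. RTN1, a reticulon of neuroendocrine cells, stood at 11.4, 11.8 and 8.35 CPM in untreated cells and at 118, 120 and 142 CPM in FIR cells. For SYT4 and RTN1 the lowest FIR library was far above the highest untreated one.

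Grouped by what their products do, 9 of 12 targets of transmitter and vesicle release rose and 0 fell by the edgeR test. Over all genes 25.4% were higher and 23.4% lower, which holds for each group that follows. They included SYT7 at 1.32 (SE 0.09) and the active zone scaffold BSN at 1.63 (SE 0.14), whereas the vesicle protein SYP, at 0.17, was not called. Of 10 ion channels and receptors 6 rose and 1 fell. The potassium channel gene KCNH2 rose by 1.84 (SE 0.19), and GRIN1, the obligatory NMDA receptor subunit, fell from 83.7, 78.0 and 72.7 CPM to 49.1, 45.1 and 50.4 CPM. All 6 measured targets of cytoskeleton, transport and adhesion rose, with the neurofilament NEFL at 2.40 (SE 0.22) and the kinesin KIF1A at 0.83 (SE 0.08). L1CAM in this group reached the table's lowest level in 1 untreated library and 3 FIR libraries. It and SNAP91, counted among the vesicle targets, were listed through the group where they are high, so their rises are only descriptions. Of 5 signalling and scaffold genes 4 rose, led by the kinase subunit CAMK2B at 2.11 (SE 0.12). HES6, a transcriptional cofactor of neurogenesis, fell from 152, 147 and 173 CPM to 52.6, 77.5 and 50.4 CPM (log2 fold change -1.39, SE 0.13). Of the remaining 8 targets, HES6 among them, 4 rose, 1 fell and 3 did not pass. These functional groups were formed after the values were seen.

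**Figure D5:**
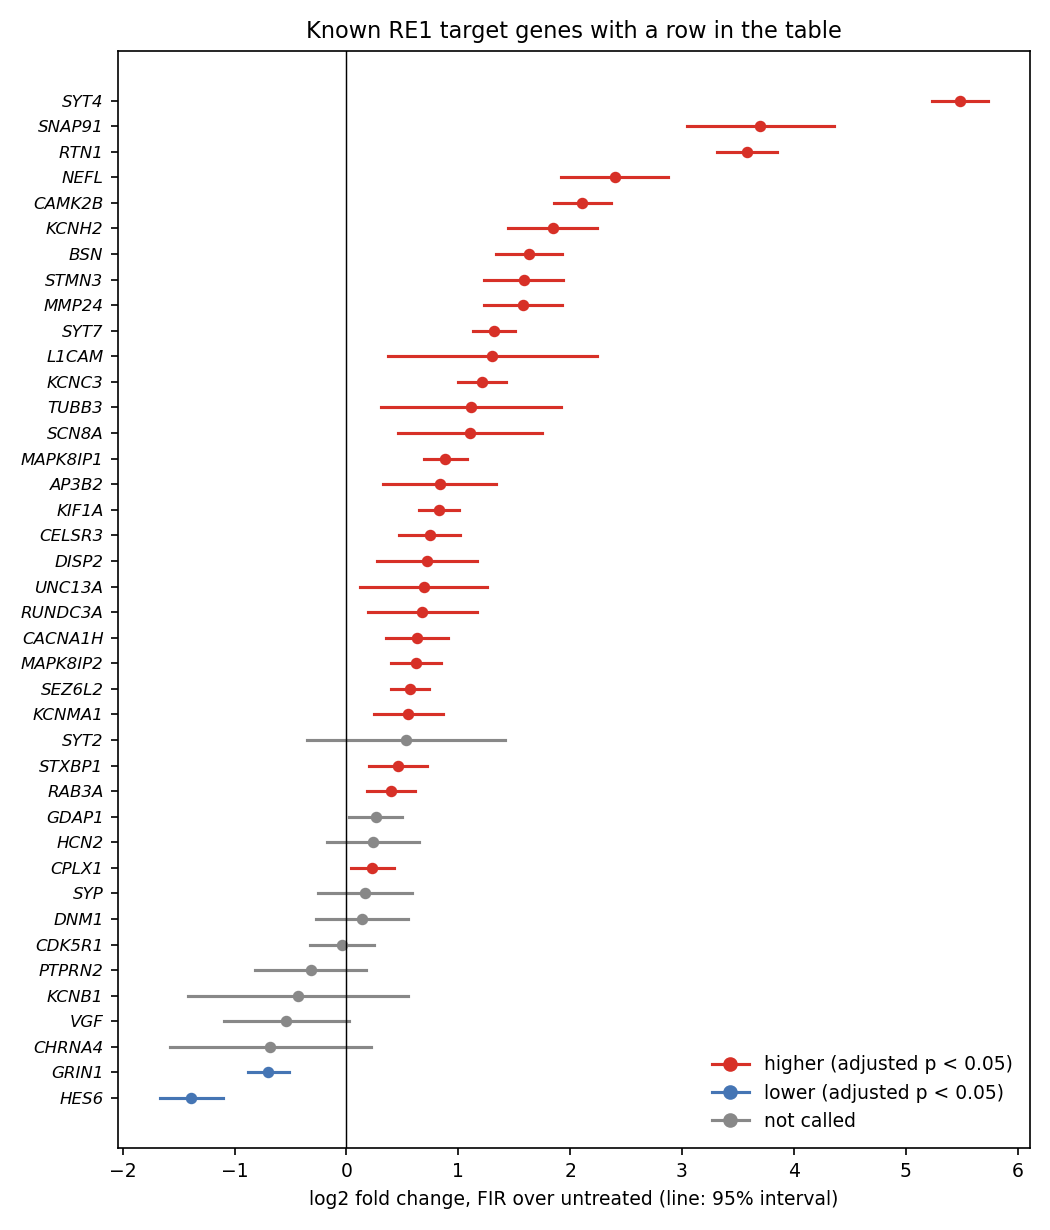
Log2 fold change, FIR over untreated, with its 95% interval from the edgeR fit, for the known RE1 target genes with a row, apart from any not reported here, in order of size (red higher, blue lower, grey not called). Values run from -1.39 for HES6 to 5.49 for SYT4, and most genes are red.

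The sequence side of the system was examined in RefSeq promoters (GRCh38.p14, from 250 bases before to 50 bases after each start). The motif searched on both strands was the canonical RE1, TTCAGCACC, then a gap of 2 bases of any kind, then GGACAGC, with at most 2 mismatches in the 16 fixed bases. It was found in 35 of 35116 promoters, 0.0997%, which belong to 33 genes. Only 7 of those genes had a row in the table, and 2 rose, 2 fell and 3 did not pass, beside 25.4% higher and 23.4% lower over all genes. Of the 41 known targets 26 had a promoter in the RefSeq table, and 1 of them, VGF, held a match in its window. A match is a stretch of letters, and a window without one says nothing of sites elsewhere in a gene. The 4 matched genes of largest absolute change among those with a mean of 1 CPM or more are shown with up to 20 bases on either side, 5′ to 3′ on the strand of the gene, the matched stretch in capitals.

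OGDHL, chr10:49762404-49762461, minus strand: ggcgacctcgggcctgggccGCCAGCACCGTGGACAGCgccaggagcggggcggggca
LHFPL5, chr6:35805278-35805335, plus strand: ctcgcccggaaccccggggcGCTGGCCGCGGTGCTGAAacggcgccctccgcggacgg
ING1, chr13:110712630-110712672, plus strand: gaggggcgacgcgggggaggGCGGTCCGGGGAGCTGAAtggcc
VGF, chr7:101165539-101165596, minus strand: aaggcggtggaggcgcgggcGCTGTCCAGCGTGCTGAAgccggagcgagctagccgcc

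The match in OGDHL, an oxoglutarate dehydrogenase-like enzyme, reads along the gene, and those of LHFPL5, ING1 and VGF read on the opposite strand. LHFPL5 and VGF had 1 mismatch and OGDHL and ING1 had 2. OGDHL rose from 18.1 ± 2.27 to 31.5 ± 4.87 CPM (SD, n = 3; log2 fold change 0.80, SE 0.13, adjusted p = 1.3e-04 by edgeR). LHFPL5, a subunit of the mechanotransduction channel of hair cells, fell from 2.87 ± 0.171 to 1.55 ± 0.196 CPM (adjusted p = 0.0112 by edgeR). VGF, a secreted neuropeptide precursor whose match starts 7 bases before the gene's start, was not called (log2 fold change -0.54, adjusted p = 0.105 by edgeR). With 3 mismatches allowed, 70 genes with a row held a match, and 26 of them rose and 16 fell, beside 2847 and 2785 of the 10503 genes with a row and a promoter.

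Of the 5 genes whose log2 CPM followed that of REST most closely over the 6 libraries, among 11050 genes averaging 5 CPM or more, OTUD7B, FBXW2, LUZP1 and DNAJC16 are named here. Their Pearson r ran from 0.9895 to 0.9948. All 6 libraries belong to 1 experiment with 2 groups, and the highest of so many values is high by selection, so this is a description of these libraries. FBXW2 did not pass the test between the groups (adjusted p = 0.0733 by edgeR), and OTUD7B, LUZP1 and DNAJC16 were higher in FIR cells.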

How the data were processed

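In 1 table the authors deposited raw counts of reads per gene for each library, per the file headers, with their own log2 fold change, p-value and adjusted p, and the deposited log2 CPM and log2 RPKM levels. The submitters' processing notes list, without saying what each did, hg38, edgeR 3.20.8, Subread 1.6.2, featureCounts, STAR 2.5 and bcl2fastq; no source used here gives annotation release or strand setting.

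The counts were fitted in edgeR 4.0.16 under R 4.3.3 (TMM factors, glmQLFit, glmQLFTest, group as sole term), with Benjamini-Hochberg adjustment over all 16311 genes. A filterByExpr step (minimum count 10) left every gene in. SE was the size of the log2 fold change over the root of its F statistic, and RPKM came from the deposited log2 values. The procedure was tested on simulated counts. Within groups, every library pair differed by more than sampling noise.

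Members and gene lists were chosen with earlier results of these data known. Genes named are all members; in lists of the REST system all measured genes where 12 or fewer, otherwise the 3 largest called rises and falls with a mean of 1 CPM or more; the 5 most like REST; and 4 with an RE1-like match. Some genes that this rule names are not reported here, though list counts include them. Cell type and proliferation markers, under the same rule, are given mainly as counts and sums. SYP, SYT7, BSN, KCNH2, NEFL, KIF1A, CAMK2B and the targets whose calls were lost in some settings were chosen after their values were seen. PHF21B, RLIM, MXI1, MAX and NUSAP1 were likewise chosen after their values were seen. Alternative settings comprised 3 other scalings (RLE, upper quartile, library size), DESeq2 1.42.0, voom in limma 3.58.1, a replicate block, a filter at 1 CPM (3 libraries), no filter, and leaving out each library. No filter gave the reported fit again, since filterByExpr had left every gene in.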

Additional observations from a re-analysis of the deposited data

How the results depend on the processing

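The falls of HDAC2 and KDM1A and the rise of RCOR3 kept direction and call in all 14 settings, and 2 or 3 cofactors were lower and 1 higher in each. REST's rise lost its call under RLE scaling (0.20), library-size scaling (0.16), DESeq2 (0.20), the filter of 1 CPM in 3 libraries (0.20) and the replicate block (0.22, adjusted p = 0.073), and leaving out 1 library gave 0.14 to 0.26. Same-numbered libraries deviated together at correlations of 0.07, -0.08 and -0.10. These values show no shared deviation but cannot tell whether the cultures were paired. The replicate block left 3 cofactors lower and 1 higher. RCOR1, never called, stood at -0.026 under library-size scaling and from -0.020 to 0.10 without 1 library, below 0 without untreated replicate 3, FIR_40Gy replicate 1 (-0.016) or FIR_40Gy replicate 3 (-0.0002). The log2 ratio of RCOR1 to RCOR2, -0.15, ran from -0.46 to 0.12 without 1 library. Pairing by replicate leaves the ratios' values unchanged by construction, and its sign-flip test cannot give a p below 0.25. Genes of the CoREST list called lower were 4 under library-size scaling and 1 to 3 without 1 library, and paralogs called lower were 0 to 1. With 1 mismatch allowed, only 4 genes with a row held an RE1-like match, of which 0 were higher and 1 lower. With 3 mismatches 26 were higher and 16 lower, of 70 genes with a row, against 7 such genes with 2 mismatches. Over all genes 25.4% were higher and 23.4% lower. With 2 mismatches and without 1 library, 1 to 3 were lower. The cause of these changes was not tested. RCOR2 had 41 to 74 reads a library, the fewest of the 8 genes. The planned ratio of EHMT2 to EHMT1 was not run, since EHMT2 had no row.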
